A study of Homo sapiens with 9 samples.

Results

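The genes described here encode the aminoacyl-tRNA synthetases of human cells and the scaffold proteins that hold some of them in a complex, measured by RNA-seq in OVCAR-8 ovarian cancer cells after siRNA against CDK12. Membership was set by gene symbol, and the set was chosen with earlier results of these data known. The symbol had to be 1 letter followed by ARS, with or without a final 2, and EPRS, FARSA, FARSB, TARSL2, AIMP1, AIMP2 and EEF1E1 were added. The rule found 41 of the 57773 listed genes, of which 21 encode cytosolic synthetases, 17 mitochondrial synthetases and 3 scaffold proteins. All 41 passed the filter on low values, and each rested on at least 519 reads in every library.

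An aminoacyl-tRNA synthetase joins an amino acid to its tRNA, the step that sets which amino acid a codon stands for. Human cells translate in the cytosol and inside mitochondria, and for most amino acids a separate nuclear gene encodes the mitochondrial enzyme. Several cytosolic enzymes assemble with AIMP1, AIMP2 and EEF1E1 into the multisynthetase complex. CDK12 is a kinase that phosphorylates the tail of RNA polymerase II during elongation, and its loss is known for lowering the expression of long DNA repair genes.

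OVCAR-8 is an established line from a human ovarian carcinoma. The 9 libraries fall into 3 groups of 3, all from the same cells taken 48 h after transfection: a luciferase siRNA as the control, and the siRNAs CDK12-2 and CDK12-6, which both target CDK12. The labels call the libraries of a group technical replicates and name no separate cultures, so every p-value below measures only spread between libraries, which may be technical. One library of each group bears the number AK39, another AK41 and the third AK49, and the meaning of these numbers is not stated.

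CDK12 itself fell from 7.94 ± 0.737 RPKM (reads per kilobase of listed gene length and per 1000000 reads; SD, n = 3) in the controls to 2.42 ± 0.298 (n = 6) in the CDK12 siRNA libraries, or by 69.5%, with a limma adjusted p of 1.5e-05. Libraries held 130719727 to 173421141 reads, of which 68.2% to 82.7% lay in listed genes. The carcinoma keratins KRT8 and KRT18 were high in the controls, with means of 225 and 166 RPKM, and PAX8, a transcription factor of Müllerian epithelium, stood at 7.73 RPKM. WT1, MUC16 and KRT19 were below the filter, as were all 4 leukocyte and endothelial markers. VIM, a mesenchymal filament, fell from 305 ± 29.5 to 196 ± 23.0 RPKM and KRT7, a ductal keratin, rose from 49.2 ± 2.85 to 68.9 ± 9.95 (limma adjusted p = 0.0026 and 0.0084). EPCAM, an epithelial marker, rose from 2.59 ± 0.124 to 3.68 ± 0.249 RPKM (adjusted p = 0.0029). KRT8, KRT18 and PAX8 did not pass (adjusted p = 0.96, 0.47 and 0.95). The part of these changes in the results below was not tested. Reads from RNAs that carry no poly(A) tail ranged from 171 to 875 per 1000000, and among the controls AK41 had the most, while with either CDK12 siRNA it was AK39. Because the kit does not mark strand, reads of a gene and of an overlapping or antisense partner cannot be told apart. Of the 41 members 32 overlap another listed gene, 22 of them one with at least 1 RPKM.

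The stretches below show the sequence around the starts of those members whose promoter window holds TGATGNAA, in which N is any base. Sites of this form are known as amino acid response elements, through which the transcription factor ATF4 and its partners raise synthetase genes when amino acids are short. They are printed because ATF4 mRNA and the synthetases are both described below. Each stretch comes from RefSeq on GRCh38.p14, 5′ to 3′ on the strand of the gene, with the match in capitals.
AARS: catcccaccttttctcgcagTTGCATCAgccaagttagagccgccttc
GARS: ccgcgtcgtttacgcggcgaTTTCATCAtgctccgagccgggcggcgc
IARS: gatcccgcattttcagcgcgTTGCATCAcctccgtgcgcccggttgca
MARS: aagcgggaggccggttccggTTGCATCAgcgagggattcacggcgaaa
NARS: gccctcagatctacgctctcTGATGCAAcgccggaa
YARS2: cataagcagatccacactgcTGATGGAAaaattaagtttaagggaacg

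The AARS stretch lies at chr16:70289666-70289713 on the minus strand, and its match begins 187 bases before the start. GARS lies at chr7:30594825-30594872 on the plus strand, and its match begins 33 bases before the start. IARS lies at chr9:92293683-92293730 on the minus strand, with its match 13 bases before the start. MARS lies at chr12:57488044-57488091 on the plus strand, and its match spans the start, beginning 4 bases before it. NARS lies at chr18:57621807-57621842 on the minus strand, with its match 14 bases after the start. YARS2 lies at chr12:32756067-32756114 on the minus strand, with its match 197 bases before the start. RefSeq lists AARS, GARS, IARS, MARS and NARS as AARS1, GARS1, IARS1, MARS1 and NARS1. The matches of AARS, GARS, IARS and MARS read TGATGNAA on the opposite strand, and those of NARS and YARS2 on the strand of the gene. Of these, IARS, MARS and AARS carry the same 8 letters, and NARS their reverse complement.

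The windows reach from 250 bases before to 50 bases after a start. For each member 1 window was taken, and whether its start is in use in these cells was not tested. Of the 41 members, 33 matched a window, and the 8 others include DARS, LARS, TARSL2, VARS, YARS, AARS2 and VARS2. Searched on both strands, TGATGNAA was found in 6 of the 33, or 18.2%, against 1270 of all 35116 windows, or 3.62%. By compartment it was found in 5 of 16 cytosolic, 1 of 14 mitochondrial and 0 of 3 scaffold windows. A match is a description of letters and neither a bound site nor a cause, and a window without it shows only that these letters are not there.

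HARS and HARS2 encode the cytosolic and the mitochondrial histidyl-tRNA synthetase, the latter mutated in Perrault syndrome, and they start back to back. On GRCh38.p14 their RefSeq starts lie 85 bases apart, HARS on the minus strand and HARS2 on the plus strand, and their windows share 184 bases. The stretch from start to start, chr5:140691370-140691455, is printed on the plus strand because HARS2 fell and HARS did not pass, and the capitals mark the first base of HARS on the left and of HARS2 on the right.
HARS and HARS2: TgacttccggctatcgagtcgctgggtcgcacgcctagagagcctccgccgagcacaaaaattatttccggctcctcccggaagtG

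In the control cells the cytosolic enzymes were the more abundant class. Their mean level had a median of 25.9 RPKM over the 21 genes, against 8.44 over the 17 mitochondrial genes. SARS, the seryl-tRNA synthetase, was highest at 63.2 ± 2.62 RPKM (SD, n = 3). TARSL2, a second cytosolic threonyl-tRNA synthetase, was lowest at 1.61 ± 0.0568 RPKM, far below TARS, the main one, at 28.7 ± 3.67. Among the mitochondrial enzymes RARS2 was highest at 27.2 ± 1.99 RPKM and PARS2 lowest at 2.14 ± 0.212. In 12 of the 13 pairs of enzymes compared for the same amino acid the cytosolic one was higher in mean level. The exception was tyrosine, with YARS at 12.7 ± 1.98 and YARS2 at 21.1 ± 1.68 RPKM. RPKM divides by the listed length, which need not be that of the transcript in use.

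After CDK12 siRNA, 13 synthetase and scaffold genes fell and 1 rose. Taking the mean of both siRNAs against luciferase, 14 of 41 members passed an adjusted p of 0.05 in limma, or 34.1%, close to the 33.0% of all 15208 tested genes that did. The 13 lower calls compare with 19.7% of tested genes called lower, and the 1 higher call with 13.3% called higher. The log2 change of log2(RPKM + 1), which understates the change of genes near 1 RPKM, had a median of -0.18 over the members and of -0.04 over all tested genes, and 30 of the 41 changes were negative. Of the cytosolic enzymes 8 of 21 fell and 0 rose, with a median change of -0.24. Of the mitochondrial enzymes 4 of 17 fell and 1 rose, with a median of -0.08, and whether both classes differ was not tested. In bulk RNA, fewer cells that express a gene and less RNA per cell cannot be told apart. The split of calls depended on scaling: with quantile normalization 17 members were lower and 6 higher, and with scaling to the reads in listed genes 16 were lower and 5 higher. The share of all tested genes called also rose, to 43.4% (22.0% lower) and 43.1% (20.7% lower). With AK41 left out of all groups, 3 members passed in limma, FARSB and WARS among them, and with AK39 left out of all groups 8 passed, against 11.0% and 20.4% of tested genes.

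**Figure D1:**
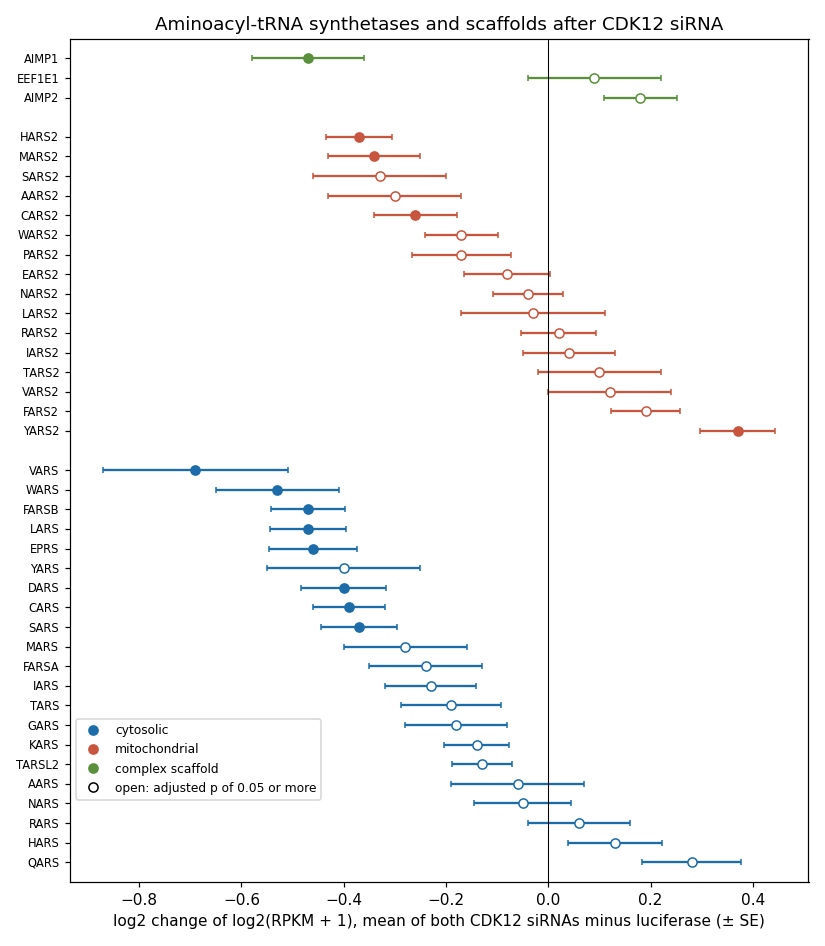
Log2 change of log2(RPKM + 1), the mean of both CDK12 siRNAs minus luciferase, for 40 of the 41 members, with bars of 1 SE from limma. Filled points passed an adjusted p of 0.05. Filled points lie left of 0 for 8 cytosolic, 3 mitochondrial and 1 scaffold gene and right of 0 for YARS2 alone, and the changes run from -0.69 for VARS to 0.37 for YARS2.

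Summed over the 21 cytosolic enzymes, RPKM was 533, 514 and 528 in the luciferase libraries AK39, AK41 and AK49. The sum was 400, 448 and 468 with CDK12-2 and 422, 453 and 452 with CDK12-6, so every CDK12 siRNA library lay below every control. Summed over the 17 mitochondrial enzymes it was 189 to 200 in the controls and 174 to 203 in the CDK12 siRNA libraries, and the groups overlapped. The median of the cytosolic enzymes, set against their control means, was -0.40, -0.27 and -0.15 with CDK12-2 and -0.36, -0.26 and -0.18 with CDK12-6, on the log2 scale. The mitochondrial median was -0.30, -0.11 and 0.02 with CDK12-2 and -0.19, -0.08 and -0.03 with CDK12-6. In each of the 6 CDK12 siRNA libraries the cytosolic median was the lower of the pair. Both classes, like the median of all tested genes, were lowest in the AK39 libraries of each siRNA.

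With CDK12-2 alone 12 members passed, 11 lower and 1 higher, against 25.2% of tested genes called either way, 15.4% called lower and 9.76% called higher. With CDK12-6 alone 13 passed, 12 lower and 1 higher, against 26.0% called either way, 15.6% called lower and 10.4% called higher. Both comparisons use the same 3 control libraries. The 11 genes lower with each siRNA (13.7% of tested genes were) include WARS, FARSB, LARS, EPRS, CARS, DARS, SARS, HARS2, MARS2 and AIMP1. Without luciferase AK39, 7 members passed with CDK12-6 (14.5% of tested genes did), and with AK39 left out of all groups 2 passed with CDK12-2 and 4 with CDK12-6 (13.7% and 12.5%). Without AK41 in any group 0 passed with either siRNA alone in limma, against 5.18% and 5.6% of tested genes. At an unadjusted p under 0.05 in limma there were 14 and 15 members, counts with no computed share over all genes. With all libraries YARS2 was higher with each, as were 8.69% of tested genes. Set directly against each other, the siRNAs gave 0 members past the threshold in limma, 0 at an unadjusted p of 0.05 and 0 with voom on recovered reads, and 0% of all tested genes passed in limma. The differences between them ran from -0.13 ± 0.15 (SE) for EEF1E1 to 0.10 ± 0.21 for VARS, which does not show that the siRNAs acted alike.

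WARS, the tryptophanyl-tRNA synthetase, an enzyme known to be induced by interferon, was at 10.9, 8.30 and 10.9 RPKM in the luciferase libraries AK39, AK41 and AK49. It was at 5.54, 6.95 and 7.57 with CDK12-2 and at 5.66, 6.62 and 7.44 with CDK12-6. All 6 CDK12 siRNA libraries lay below all 3 controls, with AK39 the lowest of each siRNA. The change was -0.53 ± 0.12 (SE; limma adjusted p = 0.0091), and it missed the threshold without luciferase AK39, where its value was still negative. RP11-638I2.8, which spans 20272 bases of the WARS locus in the listed annotation, also fell (-0.51, adjusted p = 0.020).

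VARS, the valyl-tRNA synthetase, showed the largest change among the members and is given in full for that reason, outside the rule for named genes. It was at 48.6, 35.3 and 51.4 RPKM in the controls, at 22.7, 28.1 and 35.2 with CDK12-2 and at 21.2, 25.2 and 34.0 with CDK12-6. No CDK12 siRNA library reached the lowest control, but the margin was small, between 35.2 in CDK12-2 AK49 and 35.3 in luciferase AK41. The change was -0.69 ± 0.18 (adjusted p = 0.017), with adjusted p = 0.051 for CDK12-2 and 0.029 for CDK12-6. Without luciferase AK39 or without luciferase AK49 the call was lost. At 62.6%, VARS had the highest transcript GC content of the members, and it was highest in the AK49 library of each group.

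FARSB and FARSA encode the beta and alpha subunits that together make the cytosolic phenylalanyl-tRNA synthetase. FARSB was at 24.0, 22.6 and 21.9 RPKM in the controls, at 15.0, 17.3 and 16.0 with CDK12-2 and at 16.4, 17.2 and 15.3 with CDK12-6. The groups did not overlap, and the change of -0.47 ± 0.073 (adjusted p = 0.0011) passed in each of the 22 alternatives run. FARSA went from 26.5 ± 3.23 to 22.3 ± 2.34 RPKM, with a change of -0.24 ± 0.11 that did not pass (adjusted p = 0.12). Its groups overlapped, and whether the subunits differed in their change was not tested.

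**Figure D2:**
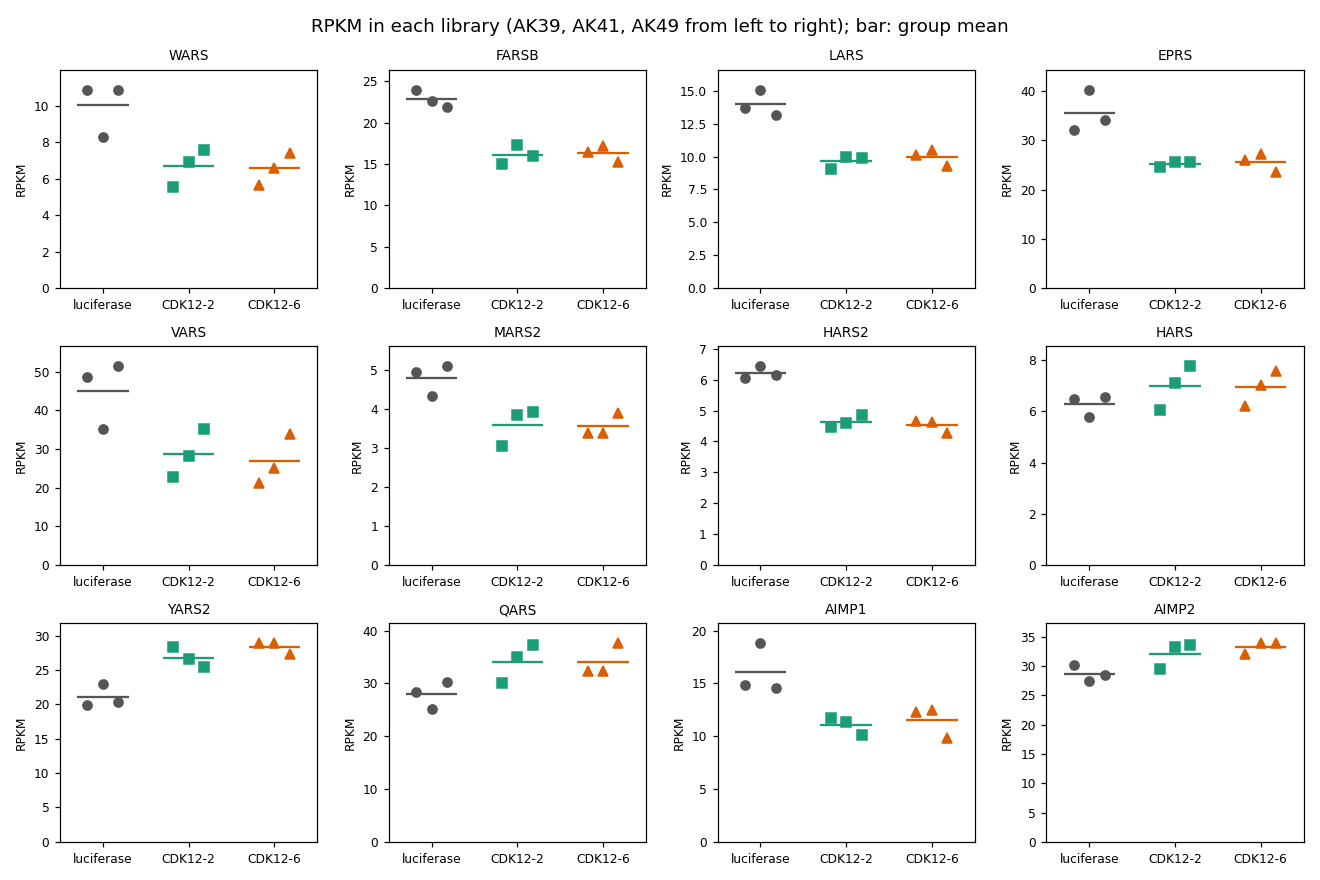
RPKM of 12 members in each of the 9 libraries, with AK39, AK41 and AK49 from left to right in each group and the group mean as a bar. For WARS, FARSB, LARS, EPRS, VARS, MARS2, HARS2 and AIMP1 the highest CDK12 siRNA library lies under the lowest control, for YARS2 the lowest lies over the highest control, and HARS, QARS and AIMP2 overlap.

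Within the multisynthetase complex 3 of 8 enzymes fell and 0 rose, with a median change of -0.26, and outside it 5 of 13 cytosolic enzymes fell and 0 rose, with a median of -0.24. Of all tested genes 33.0% were called either way and 19.7% lower. The 37.5% and 38.5% called here were all lower and rest on few genes, and no set was tested against those shares. LARS, the leucyl-tRNA synthetase, which also takes part in leucine sensing for mTORC1, was at 13.7, 15.1 and 13.2 RPKM in the controls, at 9.09, 10.0 and 9.92 with CDK12-2 and at 10.1, 10.5 and 9.25 with CDK12-6. Its groups were separate, and it fell by 29.9% in mean level (change -0.47 ± 0.075, adjusted p = 0.0013). RP11-118M9.3, which overlaps LARS over 7375 bases, fell too (-0.62, adjusted p = 6e-04). EPRS joins glutamate and proline to their tRNAs with a single protein. It was at 32.1, 40.3 and 34.2 RPKM in the controls, at 24.5, 25.6 and 25.5 with CDK12-2 and at 26.1, 27.2 and 23.5 with CDK12-6. Luciferase AK41 was the highest of all, and the highest CDK12 siRNA value, 27.2, was below every control (change -0.46 ± 0.086, adjusted p = 0.0030). DARS, for aspartate, was the third, at 27.3 to 32.5 RPKM in the controls and 20.3 to 24.3 with CDK12 siRNA (-0.40 ± 0.083, adjusted p = 0.0053).

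The other complex enzymes did not pass. QARS, for glutamine, was at 28.4, 25.1 and 30.3 RPKM in the controls, at 30.0, 35.0 and 37.3 with CDK12-2 and at 32.4, 32.4 and 37.6 with CDK12-6. Only CDK12-2 AK39 lay below the highest control, and the change of 0.28 ± 0.096 just missed the threshold (adjusted p = 0.051). KARS, whose single gene gives the lysyl-tRNA synthetase of both cytosol and mitochondria, was at 18.1, 18.9 and 17.9 RPKM in the controls, at 15.3, 16.6 and 16.3 with CDK12-2 and at 16.8, 17.5 and 16.2 with CDK12-6. Its groups did not overlap, yet the change was only -0.14 ± 0.064 (adjusted p = 0.12). IARS, for isoleucine, changed by -0.23 (adjusted p = 0.070), MARS, for methionine, by -0.28 (adjusted p = 0.11) and RARS, for arginine, by 0.06 (adjusted p = 0.72). DDIT3, a stress factor whose gene overlaps MARS over 982 bases, fell from 16.2 ± 1.17 to 8.44 ± 0.458 RPKM (-0.87, adjusted p = 4.3e-05).

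Of the 3 scaffold proteins of the complex, AIMP1 fell and the others did not pass, and whether their changes differ was not tested. AIMP1, which binds tRNA and is cut to release a cytokine, was at 14.8, 18.8 and 14.6 RPKM in the controls, at 11.7, 11.3 and 10.1 with CDK12-2 and at 12.3, 12.5 and 9.87 with CDK12-6. Every CDK12 siRNA library was below every control (-0.47 ± 0.11, adjusted p = 0.0085). AIMP2, around which the complex is built, was at 30.1, 27.5 and 28.5 RPKM in the controls, at 29.5, 33.3 and 33.6 with CDK12-2 and at 32.1, 33.9 and 33.9 with CDK12-6. The groups overlapped through CDK12-2 AK39, and the change of 0.18 ± 0.071 did not pass (adjusted p = 0.077). EEF1E1, also called AIMP3, was at 34.8, 42.1 and 31.0 RPKM in the controls, at 39.9, 37.6 and 32.3 with CDK12-2 and at 42.9, 45.2 and 32.8 with CDK12-6. Its AK49 library was the lowest in each group, and the change was 0.09 ± 0.13 (adjusted p = 0.62). With quantile normalization or scaling to the reads in listed genes the AIMP1 call was lost, while its change stayed negative. EEF1E1 overlaps a listed readthrough gene, EEF1E1-BLOC1S5, over 29171 bases, and AIMP2 overlaps EIF2AK1 over 1585 bases.

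Of the cytosolic enzymes outside the complex, CARS for cysteine and SARS for serine also fell. CARS went from 4.86 to 5.34 RPKM in the controls to 3.39 to 3.95 with CDK12 siRNA (-0.39 ± 0.070, adjusted p = 0.0024), and SARS from 60.4 to 65.6 to 43.8 to 51.4 (-0.37 ± 0.075, adjusted p = 0.0050). CARS-AS1, listed antisense to CARS over 11867 bases, also fell (-0.27, adjusted p = 0.014). YARS, for tyrosine, overlapped between groups and did not pass (-0.40 ± 0.15, adjusted p = 0.063), although it did in 9 of the 22 alternatives. GARS, whose single gene also serves both compartments and is mutated in a form of Charcot-Marie-Tooth disease, was at 34.0, 29.6 and 33.1 RPKM in the controls, at 24.5, 30.3 and 32.4 with CDK12-2 and at 25.6, 27.9 and 30.1 with CDK12-6. The groups overlapped (-0.18 ± 0.10, adjusted p = 0.21). TARS was at 27.1, 32.9 and 26.1 RPKM in the controls, at 25.0, 24.3 and 23.6 with CDK12-2 and at 27.2, 27.8 and 22.3 with CDK12-6, and the groups overlapped (-0.19 ± 0.098, adjusted p = 0.18). TARSL2 was at 1.67, 1.62 and 1.55 RPKM in the controls, at 1.34, 1.38 and 1.31 with CDK12-2 and at 1.32, 1.57 and 1.44 with CDK12-6. A single library, CDK12-6 AK41, reached the controls, and the change was -0.13 ± 0.059 (adjusted p = 0.13). AARS, for alanine, and NARS, for asparagine, stood at changes of -0.06 ± 0.13 and -0.05 ± 0.095.

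In the mitochondrial set, HARS2 was at 6.04, 6.43 and 6.15 RPKM in the controls, at 4.47, 4.59 and 4.85 with CDK12-2 and at 4.66, 4.64 and 4.28 with CDK12-6. The spread within groups was small and the gap clear (-0.37 ± 0.065, adjusted p = 0.0022). MARS2 fell from 4.79 ± 0.404 to 3.58 ± 0.366 RPKM (-0.34 ± 0.090, adjusted p = 0.016). CARS2 fell from 4.01 ± 0.334 to 3.19 ± 0.272 RPKM (-0.26 ± 0.081, adjusted p = 0.036), but passed with neither siRNA alone and lost the call without luciferase AK39, luciferase AK49, CDK12-2 AK39, CDK12-2 AK41, CDK12-6 AK39 or CDK12-6 AK41. MARS2 lost it without luciferase AK39 or luciferase AK49.

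YARS2, the mitochondrial tyrosyl-tRNA synthetase, mutated in a myopathy with sideroblastic anaemia, was at 19.9, 23.0 and 20.4 RPKM in the controls. It was at 28.3, 26.6 and 25.5 with CDK12-2 and at 28.9, 28.9 and 27.4 with CDK12-6. Every CDK12 siRNA library was above every control, and the change of 0.37 ± 0.073 (adjusted p = 0.0039) made YARS2 the 1 member that rose. The listed hg19 gene, chr12:32880424-32908836, overlaps DNM1L, a fission GTPase of mitochondria, over 18063 bases. DNM1L rose from 20.1 ± 0.686 to 24.7 ± 1.65 RPKM (0.28 ± 0.076, adjusted p = 0.018), and the part of shared reads in the YARS2 result was not tested. FARS2, for phenylalanine, was also higher in all 6 CDK12 siRNA libraries, at 10.6 to 11.8 against 9.12 to 10.2 RPKM, but missed the threshold (0.19 ± 0.068, adjusted p = 0.058). PARS2, for proline, was at 2.20, 1.91 and 2.33 RPKM in the controls, at 1.42, 1.67 and 2.12 with CDK12-2 and at 1.59, 1.88 and 2.12 with CDK12-6, and the groups overlapped (-0.17 ± 0.097, adjusted p = 0.21).

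The remaining mitochondrial enzymes did not pass. SARS2 and AARS2 had changes of -0.33 and -0.30 (adjusted p = 0.078 and 0.10), with overlapping groups. WARS2 changed by -0.17 (adjusted p = 0.10) with no overlap, at 8.04 to 8.92 RPKM in the controls and 6.65 to 7.76 with CDK12 siRNA. EARS2, NARS2, LARS2, RARS2, IARS2, TARS2 and VARS2 had changes between -0.08 and 0.12, and the groups of each overlapped. Over all members the CDK12 siRNA libraries lay wholly below the controls for 15 genes and wholly above for 2, YARS2 and FARS2, against 19.9% and 14.3% of tested genes. The other 24 members overlapped.

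The neighbours HARS and HARS2 were also compared by their ratio within each library. HARS was at 6.49, 5.77 and 6.58 RPKM in the controls, at 6.07, 7.12 and 7.76 with CDK12-2 and at 6.23, 7.02 and 7.58 with CDK12-6. Its groups overlapped and it did not pass (0.13 ± 0.092, adjusted p = 0.32), while HARS2 fell in all 6 libraries as given above. The ratio of HARS to HARS2 was 1.07, 0.898 and 1.07 in the controls, 1.36, 1.55 and 1.60 with CDK12-2 and 1.34, 1.51 and 1.77 with CDK12-6. Every CDK12 siRNA library lay above every control in this ratio, whose mean went from 1.01 ± 0.101 to 1.52 ± 0.161. The ratio cancels anything that scales a whole library, but not what acts on 1 gene alone, such as reads of an overlapping gene. Whether the pair changed unequally was not tested. On hg19 the listed genes, HARS at chr5:140052758-140071609 and HARS2 at chr5:140071011-140078889, overlap over 599 bases. HARS2 also overlaps ZMAT2 over 625 bases, and ZMAT2 stood at 25.4 ± 1.83 and 24.8 ± 1.83 RPKM (-0.04, adjusted p = 0.78). HARS also overlaps WDR55 over 952 bases and DND1 over 414 bases, and neither passed in limma (adjusted p = 0.3 and 0.5).

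Taken for each amino acid with a pair of genes, the cytosolic to mitochondrial RPKM ratio shifted in either direction. Of the 13 pairs compared, 6 had all CDK12 siRNA ratios below all control ratios, 2 had them above and 5 overlapped. No share over other gene pairs was computed, so these counts have no baseline of their own. Of single tested genes, 19.9% lay wholly below the controls and 14.3% wholly above. The falls in mean ratio were from 4.27 ± 0.378 to 2.39 ± 0.194 for VARS/VARS2, and from 0.610 ± 0.137 to 0.345 ± 0.0750 for YARS/YARS2. LARS/LARS2 went from 1.34 ± 0.281 to 0.959 ± 0.170 and WARS/WARS2 from 1.19 ± 0.138 to 0.894 ± 0.0835, so the order of each pair turned over in mean level. Single CDK12 siRNA libraries lay on both sides of 1 for LARS/LARS2, at 0.744 to 1.16, and below 1 for WARS/WARS2, at 0.778 to 0.998. IARS/IARS2 turned over in mean level as well, from 1.13 ± 0.0622 to 0.927 ± 0.0157, and CARS/CARS2 went from 1.28 ± 0.0526 to 1.15 ± 0.0422. Next to HARS/HARS2, the other rise was in AARS/AARS2, from 4.57 ± 0.353 to 5.63 ± 0.337. For LARS/LARS2 the nearest libraries of both groups round to the same ratio of 1.16, and for YARS/YARS2 they were 0.454 and 0.450.

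**Figure D3:**
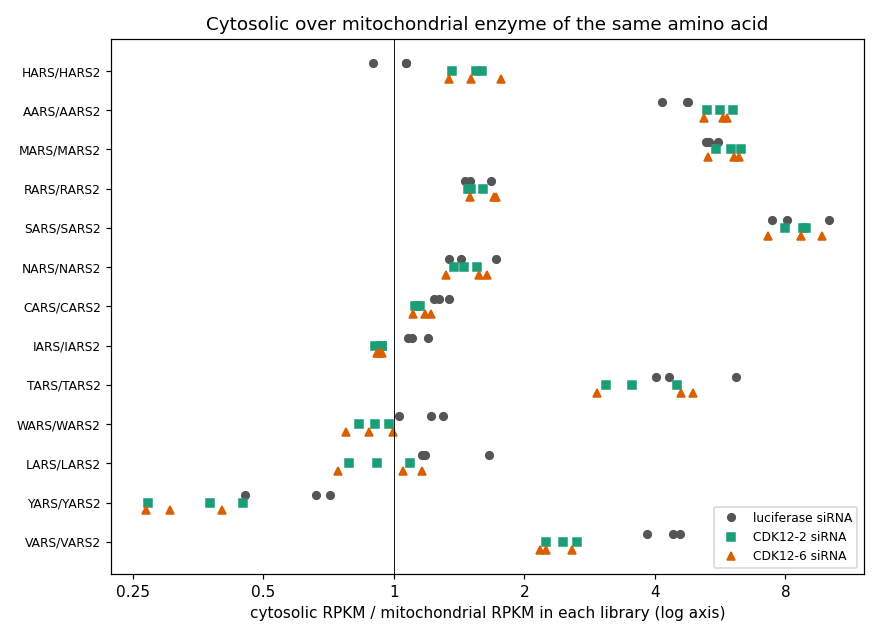
RPKM of the cytosolic enzyme over RPKM of the mitochondrial enzyme for 13 amino acids in each of the 9 libraries, on a log axis. Pairs are sorted by the log2 change of the mean ratio, CDK12 siRNA over luciferase. The HARS/HARS2 ratio of each CDK12 siRNA library lies at 1.34 or more, above the highest control of 1.07, and the VARS/VARS2 ratio at 2.64 or less, below the lowest control of 3.84.

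By structural class, 7 of 19 class I enzymes fell and 1 rose, with a median change of -0.23, and 6 of 20 class II enzymes fell and 0 rose, with a median of -0.18. The shares called, 42.1% and 30.0%, lie on either side of the 33.0% of all tested genes, of which 19.7% were lower and 13.3% higher. Both counts include EPRS, which carries a domain of each class. Across the 41 members the log2 change had a Spearman rho of 0.08 with transcript GC content and of -0.02 with level, against -0.03 and -0.22 over all tested genes. These are descriptions over genes that share libraries.

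Within groups, the members varied with GC content. The deviation of the 41 members from their group mean had a Spearman rho with transcript GC of 0.51, -0.77 and 0.82 in luciferase AK39, AK41 and AK49. It was -0.53, -0.47 and 0.72 with CDK12-2 and -0.74, -0.75 and 0.80 with CDK12-6. In each group the AK49 library was thus high in GC-rich members such as VARS, SARS2 and AARS2, and the AK41 library low in them relative to AT-rich members such as AIMP1 and EEF1E1. Luciferase AK39 and the AK39 libraries of both CDK12 siRNAs went opposite ways. The same relation was present over all 14496 tested genes with a GC value, at -0.59 to 0.60. With a smooth GC trend removed from each library, 28 members passed, 22 lower and 6 higher, against 53.2% of genes tested in that fit. The part of this pattern in single results was not otherwise tested.

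**Figure D4:**
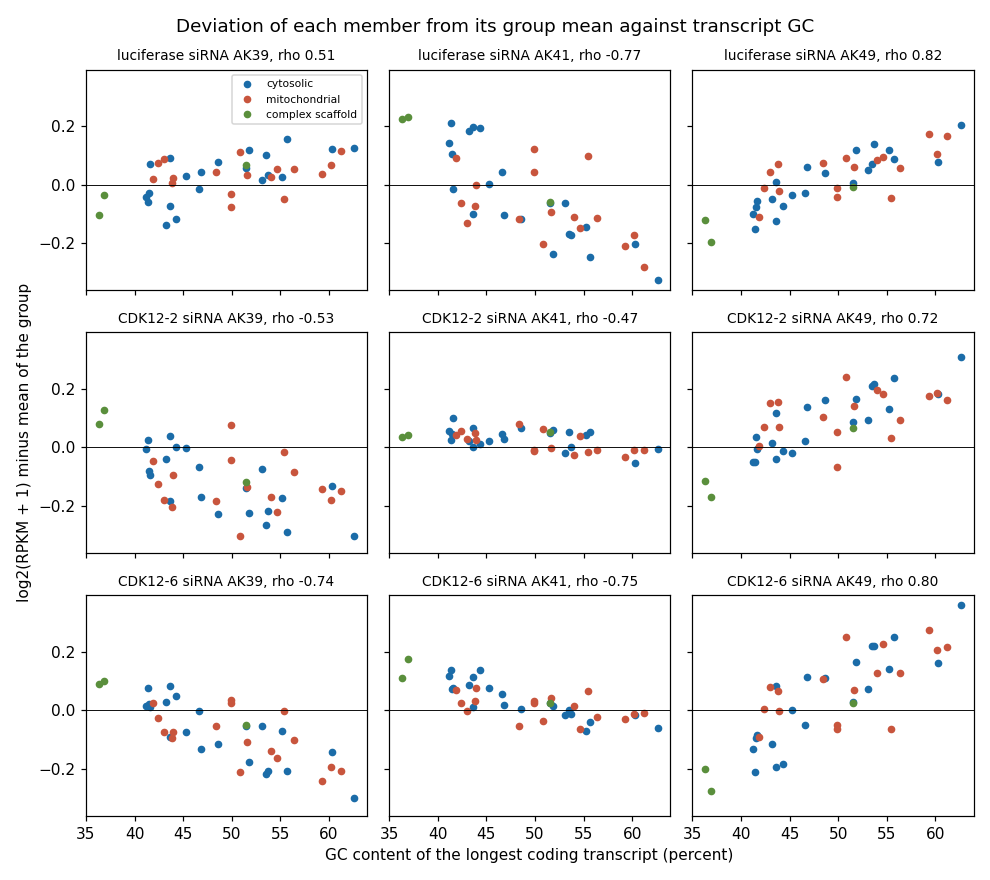
Deviation of log2(RPKM + 1) from the group mean for the 41 members in each of the 9 libraries, plotted against the GC content of the longest coding transcript, with Spearman rho above each panel. The slope is positive in the 3 AK49 libraries and negative in the 3 AK41 libraries, and in AK39 it is positive with luciferase and negative with both CDK12 siRNAs.

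Of the 13 members that fell, 9 had a promoter window and 0 held TGATGNAA. Over all windows 3.62% held it, so 0 in so few windows says little. The matches shown above belong to 5 cytosolic genes that did not pass, of 11 such genes with a window, and to YARS2, which rose. The changes of these 5 were negative too, at -0.28 for MARS, -0.23 for IARS, -0.18 for GARS, -0.06 for AARS and -0.05 for NARS. Of the cytosolic genes that fell, 5 had a window. These counts were read after the calls were known and rest on few genes.

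ATF4 and several of its targets fell, while others rose. Of 36 listed genes of ATF4 and the amino acid response 30 were tested, and 9 fell and 4 rose, with a median change of -0.16. The 43.3% called compare with 33.0% of all tested genes, of which 19.7% were lower and 13.3%, the same share as 4 of 30, higher. ATF4, the transcription factor, fell from 110 ± 4.36 to 71.6 ± 3.72 RPKM (-0.61 ± 0.073, adjusted p = 0.00027). Its target DDIT3 fell as given above, and ASNS, the asparagine synthetase, fell from 4.73 ± 0.423 to 2.62 ± 0.171 RPKM (-0.66, adjusted p = 0.00014). STC2, a secreted glycoprotein, rose from 1.71 ± 0.220 to 9.69 ± 2.08 RPKM (1.96, adjusted p = 2.2e-05). DDIT4, an inhibitor of mTORC1, rose by 0.58 (adjusted p = 0.00065), and SLC38A2, a transporter of neutral amino acids, by 0.36 (adjusted p = 0.0027), both on the log2 scale.

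**Figure D5:**
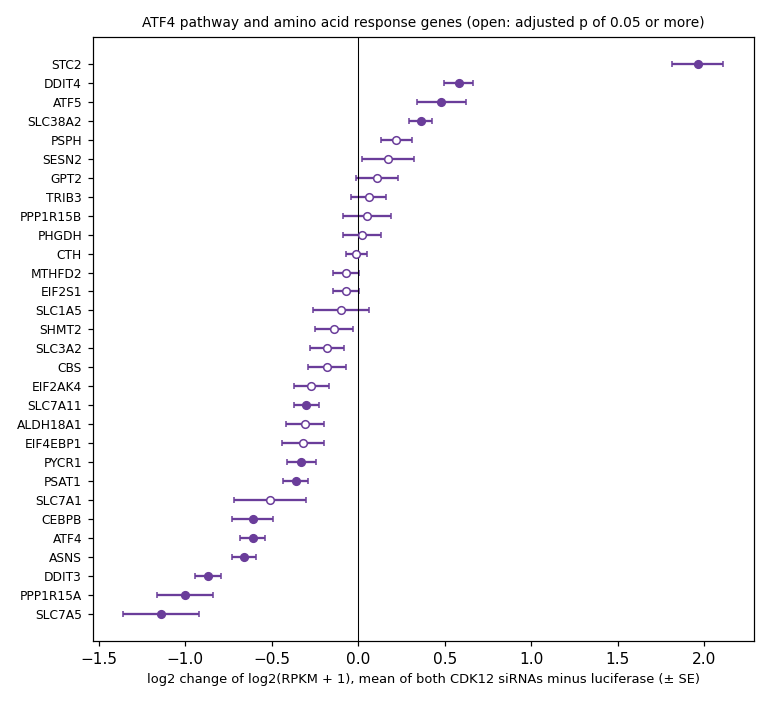
Log2 change of log2(RPKM + 1), the mean of both CDK12 siRNAs minus luciferase, with bars of 1 SE, for the 30 tested genes of the ATF4 and amino acid response list. Filled points passed an adjusted p of 0.05, of which 9 lie left of 0, among them ATF4, ASNS and DDIT3, and 4 right of 0, with STC2 the farthest at 1.96.

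Genes that act on tRNAs before or after charging gave mixed counts, to be read against the 19.7% of all tested genes that were lower and the 13.3% that were higher. Of 7 genes of proofreading, hydrolysis and tRNA export 3 fell and 1 rose. DTD1, which removes D-amino acids from tRNA, fell from 10.9 ± 0.647 to 6.83 ± 0.399 RPKM (-0.61, adjusted p = 0.00026), and AARSD1, which clears serine from alanine tRNA, fell from 9.92 ± 0.156 to 6.94 ± 0.328 (-0.46, adjusted p = 0.00070). Mitochondria lack a glutaminyl-tRNA synthetase and use an amidotransferase instead. Of its 3 subunits and the formyltransferase MTFMT, 1 rose, PET112, from 1.16 ± 0.0753 to 1.46 ± 0.0626 RPKM (0.18, adjusted p = 0.031). Of 22 listed genes of tRNA maturation 4 fell and 2 rose, or 27.3% called, below the 33.0% of all tested genes. In the selenocysteine pathway, which converts serine while it is on its tRNA, 2 of 6 genes rose and 1 fell. PSTK, the kinase of that route, rose from 1.12 ± 0.0680 to 1.89 ± 0.121 RPKM (0.44, adjusted p = 0.00070), and SECISBP2, which binds the selenocysteine element of mRNAs, fell from 8.58 ± 0.491 to 5.77 ± 0.506 (-0.50, adjusted p = 0.0017).

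In the authors' deposited table, which holds their own fold changes, 18 members had a false discovery rate below 0.05, 17 lower and 1 higher, against 35.0% of the genes tested here called either way and 21.9% called lower. They include all 14 called here, and MARS, YARS, AARS2 and SARS2 besides. The authors' deposited table gives VARS a log2 fold change of -0.71 with a false discovery rate of 6.2e-05, and WARS -0.61 with 1e-05.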

How the data were processed

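Polyadenylated RNA of 9 OVCAR-8 libraries was measured, 3 per siRNA. The authors deposited RPKM values for 57773 genes with hg19 coordinates, and, per the file headers, their own log2 fold change and an FDR-adjusted p-value for 1 comparison. It was read as the 6 CDK12 siRNA against the 3 luciferase libraries, since it correlated at r = 0.99987 across genes with that ratio of mean RPKM. Per the submitters' processing notes, TopHat2, featureCounts and edgeR were used with hg19. The annotation version and counting settings are not given in the sources used here.

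Multiplied by the listed length plus 1 base, 100% of the deposited RPKM values were whole multiples of 1 step per library, within 0.001, which gave reads and library sizes. The 15208 genes that reached 1 RPKM in 3 or more libraries entered limma 3.58.1 in R 4.3.3 (eBayes with trend) on log2(RPKM + 1), with all 9 libraries in 1 fit of 3 groups and Benjamini-Hochberg adjustment at 0.05 over all tested genes. The script was tested on simulated data. The deposited unit is RPKM, and the planned count models of edgeR and DESeq2 were not run on the recovered reads either. Limma voom on recovered reads was added in their place, after seeing the data.

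Promoter windows are from RefSeq (GRCh38.p14), gene coordinates from the files (hg19), and GC from the longest coding transcript of GENCODE. One member is counted with the rest and not reported singly here. The members and lists were chosen with earlier results of these data known. Values in every library are given for up to 6 members per direction that passed with each siRNA, ranked by the smaller of both changes, and for GARS, KARS, HARS, HARS2, TARS, TARSL2, AIMP1, AIMP2, EEF1E1, QARS, EPRS and PARS2. Of the other lists, up to 3 genes per direction with the lowest adjusted p could be named.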

Additional observations from a re-analysis of the deposited data

How the results depend on the processing

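Of 24 alternatives 22 were run, 19 of them planned and 3 added after seeing the data (voom on recovered reads, GC trend removed, and without the 3 libraries richest in RNA lacking a poly(A) tail). The edgeR and DESeq2 count models were not run. No call of a member changed sign in these. The call of FARSB held in all 22, 12 of the 14 called members missed the threshold in at least 1, and 18 members that were not called passed in at least 1.

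For the mean of both siRNAs, where 14 members passed, 23 passed with quantile normalization, 30 with RNA lacking a poly(A) tail as a covariate, 28 with the GC trend removed, 8 with AK39 and 3 with AK41 left out of all groups, and 14 with voom. For CDK12-2 the same covariate gave 31, the GC removal 27, and leaving out AK39 or AK41 gave 2 and 0, with 14 at an unadjusted p of 0.05 in the latter. For CDK12-6 they gave 27, 27, 4 and 0, with 15 at an unadjusted p of 0.05 in the latter, and leaving out AK49 gave 7. Share of all genes called moved along: for the mean of both, 61.2% with the covariate, 53.2% with GC removed and 11.0% without AK41. For CDK12-2 it was 56.6% with the covariate, 46.8% with GC removed, 13.7% without AK39 and 5.18% without AK41. For CDK12-6 it was 55.4%, 47.3%, 12.5% and 5.6% in the same order, and 16.6% without AK49. No share over all genes was computed for the unadjusted counts. Leaving out 1 library at a time gave 10 to 18 members for the mean of both, 8 to 14 for CDK12-2 and 7 to 15 for CDK12-6, the lowest without luciferase AK39. In those fits 19.5% to 35.1%, 14.7% to 27.7% and 14.5% to 29% of all tested genes were called. The cytosolic median ranged from -0.33 to -0.16 and the mitochondrial one from -0.14 to 0.00, the last with AK39 left out. The median of all tested genes ranged from -0.08 with AK41 left out of all groups to 0.04 with AK39 left out. Why these counts moved was not tested. Each fit without 1 AK number rests on fewer libraries. For the mean of both, 8, 3 and 12 members passed without AK39, AK41 and AK49, against 20.4%, 11.0% and 23.8% of tested genes.

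Same-numbered libraries of different groups had correlated deviations from -0.56 to 0.81, over 0.1 in 6 of 9 cases. A library correlated best with its own number in 10 of 18 checks. Between AK49 libraries the correlations were 0.65, 0.75 and 0.81, while luciferase AK39 stood at -0.56 and -0.51 with the AK39 libraries of CDK12-2 and CDK12-6. What samples with the same number share is not stated and was not tested. With the AK number as a replicate block 20 members passed for the mean of both, 16 for CDK12-2 and 19 for CDK12-6, against 41%, 33.4% and 33.9% of all tested genes.

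The shallowest member rested on 519 reads in a library, where counting error adds to the spread between libraries.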
